A study of Mus musculus with 144 samples.

Results

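The response of the liver to an atherogenic diet was examined in male mice of the inbred strain 129S1/SvImJ. Its members were the 6 arrays whose titles name this strain, males and either diet, 3 on each diet, in a series of 12 strains that holds 3 arrays for each strain, sex and diet. One diet was regular chow with 6% fat, and the other, called atherogenic, had 30% fat with cholic acid, a bile acid. Each array held liver RNA of 1 animal, harvested between 11 and 13 weeks of age, and the labels give no transgene, knockout or time on the diet. Females of 129S1/SvImJ on the same diets (6 arrays) and males of 8 other strains of that age (48 arrays, 3 a diet and strain) served for comparison. These strains were C57BL/6J, A/J, NZB/BINJ, DBA/2J, C3H/HeJ, BALB/cJ, I/LnJ and MRL/MpJ-Tnfrsf6lpr/J, which carries the lpr allele of the death receptor gene Fas.

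The arrays carried the marks of liver. The 12 measured hepatocyte markers averaged 12.07 to 12.24 on a log2 scale on each array, where the median probe set lay at 5.04 to 5.08, and their diet changes were -0.46 to 0.03. Correlations over all probe sets were 0.991 to 0.995 among the chow arrays, 0.990 to 0.992 among the atherogenic arrays and 0.976 to 0.990 between diets. Each gene was read through 1 probe set, its value is a log2 intensity, and a change is the mean of the 3 atherogenic arrays minus that of the 3 chow arrays. A gene was called when limma's adjusted p, over all 45037 probe sets, was under 0.05. Of the 135 called genes that are named here, 60 had other probe sets, 95 in all, of which 56 were called in the same direction, 39 were not called and 0 were called in the opposite direction.

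A liver given an atherogenic diet with cholic acid is known to adapt along a few routes. Sterols hold back SREBP2, the factor that drives the genes of cholesterol synthesis, and oxidised sterols activate LXR, which turns on sterol export and fatty acid synthesis. Bile acids act through FXR and its target Nr0b2 to restrain their own synthesis. Hepatocytes under inflammatory signals secrete acute phase proteins, and resident macrophages, the Kupffer cells, may be joined by recruited monocytes and by activated stellate cells, which lay down collagen.

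In these males the diet was followed by a rise of inflammatory, macrophage, matrix and LXR target genes and a fall of cholesterol synthesis genes. In all, 2611 of 45037 probe sets were called (5.8%). Counted as genes, 1467 of 18193 were called (8.06%), 1031 of them higher on the atherogenic diet (5.67% of all genes) and 436 lower (2.4%). The rises were also the larger changes: 304 called genes rose 2-fold or more and 34 fell 2-fold or more. For 1353 of the called genes the 3 atherogenic values did not overlap the 3 chow values, as was so for 4131 of all genes. The spread behind these calls was pooled over 120 arrays of 10 strains, and the 6 arrays fitted alone gave 421 called genes, 383 higher and 38 lower. Leaving out the second atherogenic array gave 690 called genes, and leaving out the first chow array 927.

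**Figure D1:**
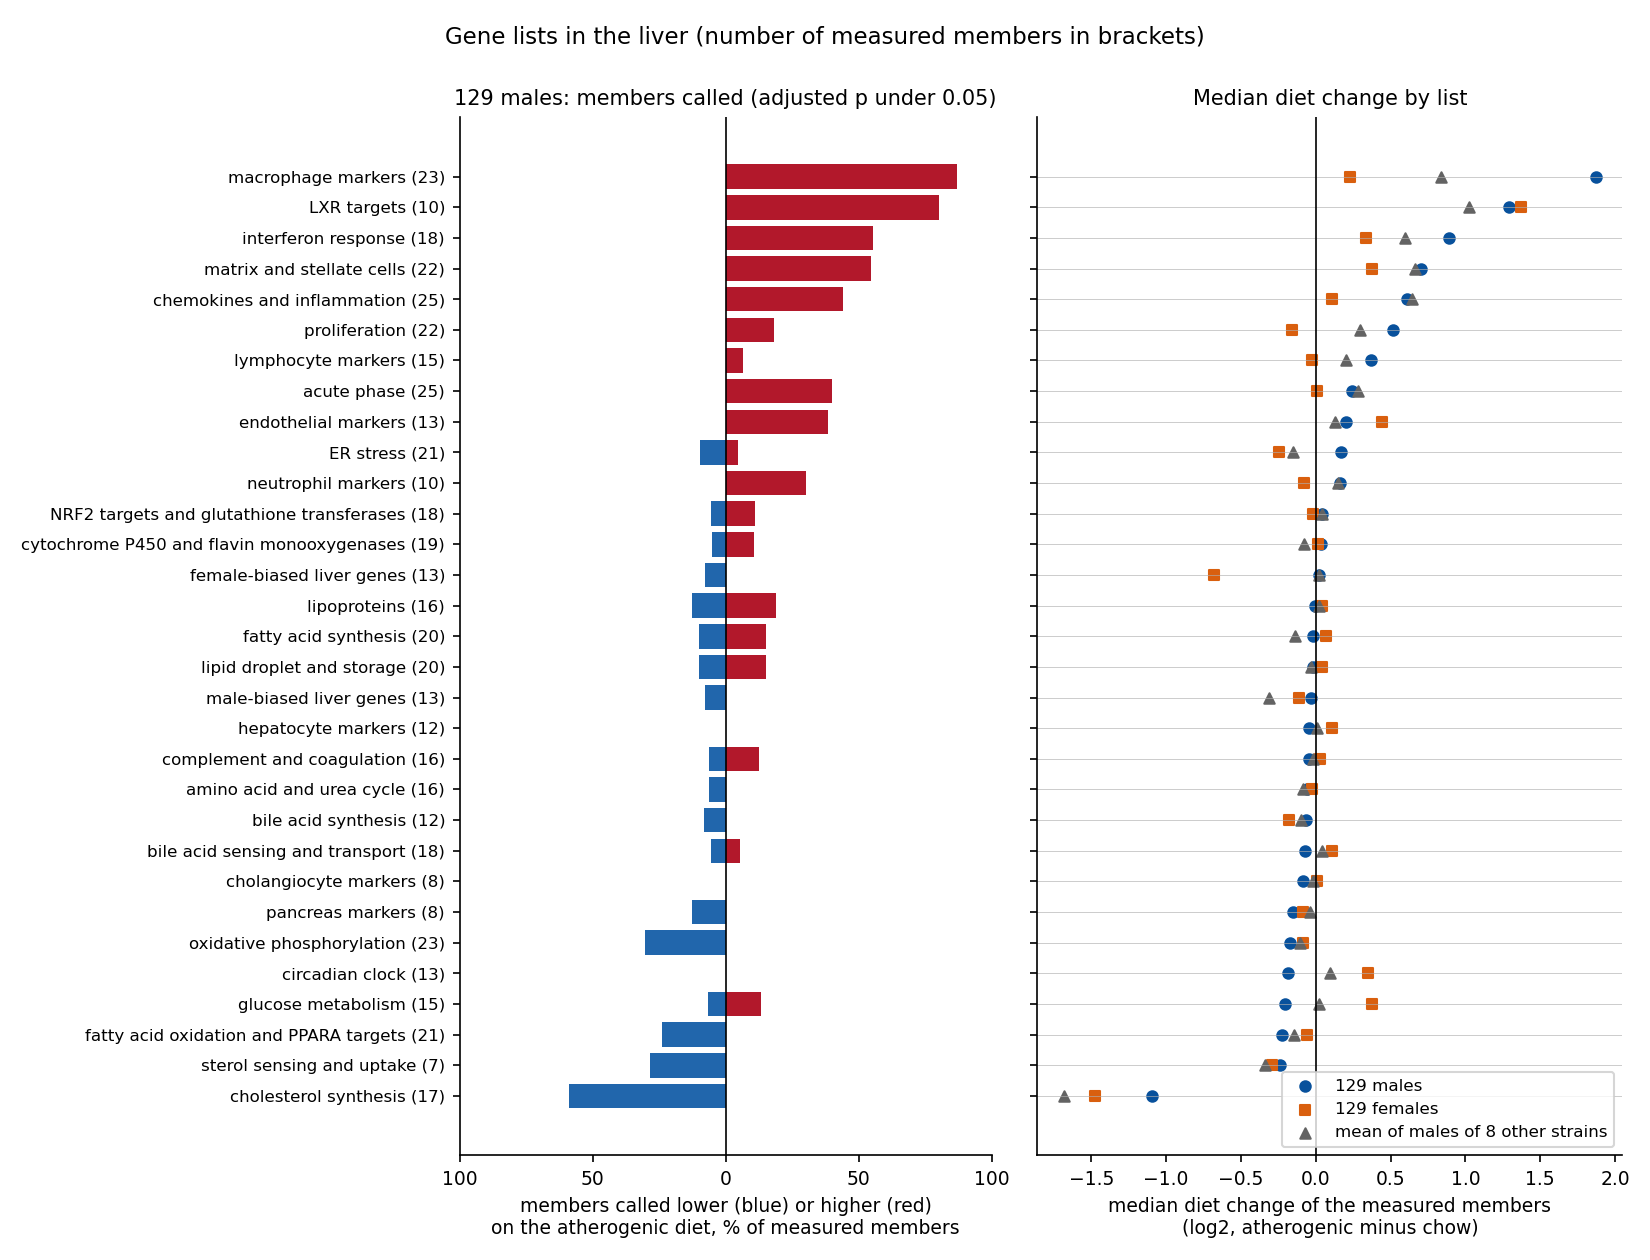
Left, the share of the measured members of each gene list that were called higher (red) or lower (blue) on the atherogenic diet in 129S1/SvImJ males. Right, the median log2 diet change of each list in these males (circles), in 129S1/SvImJ females (squares) and in the mean of males of 8 other strains (triangles). Macrophage markers had the highest median in the males (1.87) and cholesterol synthesis the lowest (-1.09).

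Cholesterol synthesis fell along most of its length. Of 17 measured enzymes of the route 10 fell, against 2.4% of all genes. The median change was -1.09 against -0.04 for all genes. For 14 of the 17 every atherogenic array lay below every chow array. Over all 18193 genes, 4131 had diets without overlap, 1892 of them with the atherogenic arrays above. Cyp51, the demethylase of lanosterol, read 8.19, 8.82 and 9.41 on chow and 5.84, 6.27 and 6.64 on the atherogenic diet, a change of -2.55 (SE 0.30, adjusted p = 6.92e-10). Sqle, which makes squalene epoxide, read 7.07, 7.71 and 8.59 against 5.12, 5.44 and 5.22 (-2.53, SE 0.39, adjusted p = 1.05e-06). Idi1, the isomerase that supplies the building block dimethylallyl diphosphate, read 9.10, 10.19 and 10.67 against 7.23, 7.43 and 7.83 (-2.49, SE 0.37). For these 3 enzymes the diets did not overlap, and the first chow array was the lowest of the chow group. Fdps changed by -1.99 (SE 0.40), Nsdhl by -1.98 (SE 0.29), Msmo1 by -1.75 (SE 0.33) and Tm7sf2, a reductase late in the route, by -1.65 (SE 0.23). Fdft1, which joins farnesyl units to squalene, changed by -1.11 (SE 0.24), Pmvk, the phosphomevalonate kinase, by -1.09 (SE 0.26), and Ebp by -0.37 (SE 0.10). Of the 7 that were not called, Hmgcs1 at the head of the route read 9.25, 10.53 and 10.80 on chow and 9.15, 9.42 and 9.19 on the atherogenic diet (-0.94, SE 0.32, adjusted p = 0.066), and Lss and Dhcr7 changed by -0.75 and -0.58. The list averaged 8.97 on the first chow array, 9.52 and 9.76 on the other two, and 8.06 to 8.18 on the atherogenic arrays. Without that first chow array 14 members were called lower. Without the second atherogenic array 8 were, since Fdft1 (-0.87) and Ebp (-0.30) lost their call, and Pmvk lost it without the second chow array (-0.88, adjusted p = 0.0514).

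The promoters of this route share a feature the list was not chosen for, the letters CCAAT, to which the factor NF-Y binds. Of the 17 enzymes 14 had an entry among the RefSeq promoters of GRCm38.p6, and these genes had 17 promoters, 1 for each listed start. Of the 17 promoters 14 (82.4%) held CCAAT on either strand within 250 bases before the start, against 33.85% of all 32851 promoters of that length. The 3 without it were starts of Dhcr7 and Pmvk, which held it at another start. The letters TCACNCCAC of a sterol regulatory element occurred in 1 of the 17 promoters, that of Hmgcs1, and in 1.053% of all promoters. A match of letters is a description and not a measured site. Shown are 4 enzymes that fell and had an entry. The 250 bases before the start of Idi1 (chr13:8885356-8885605, plus strand), Cyp51 (chr5:4104698-4104947, minus strand), Nsdhl (chrX:72918271-72918520, plus strand) and Msmo1 (chr8:64733579-64733828, minus strand) run 5′ to 3′ with CCAAT, or ATTGG where it lies on the other strand, in capitals:
Idi1: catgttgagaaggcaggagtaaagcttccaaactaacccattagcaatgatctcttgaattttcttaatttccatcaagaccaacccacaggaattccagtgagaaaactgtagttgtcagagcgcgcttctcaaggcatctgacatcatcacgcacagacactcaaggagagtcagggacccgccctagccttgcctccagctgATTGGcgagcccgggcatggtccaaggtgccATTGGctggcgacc
Cyp51: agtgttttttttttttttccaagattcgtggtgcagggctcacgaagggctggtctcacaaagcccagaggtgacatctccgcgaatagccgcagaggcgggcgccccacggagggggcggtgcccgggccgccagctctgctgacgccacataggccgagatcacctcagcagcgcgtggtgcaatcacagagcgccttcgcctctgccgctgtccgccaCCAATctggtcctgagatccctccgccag
Nsdhl: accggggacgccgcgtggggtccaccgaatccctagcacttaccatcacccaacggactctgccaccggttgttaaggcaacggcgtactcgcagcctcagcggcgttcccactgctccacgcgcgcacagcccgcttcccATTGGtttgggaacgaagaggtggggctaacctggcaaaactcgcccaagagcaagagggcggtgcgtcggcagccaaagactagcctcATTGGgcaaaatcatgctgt
Msmo1: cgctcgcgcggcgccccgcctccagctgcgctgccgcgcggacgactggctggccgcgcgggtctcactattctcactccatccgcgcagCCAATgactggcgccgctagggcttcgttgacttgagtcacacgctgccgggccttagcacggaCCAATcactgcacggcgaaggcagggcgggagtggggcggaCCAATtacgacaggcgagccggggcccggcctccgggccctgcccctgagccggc
The matches in Idi1 begin 45 and 14 bases before the start, that in Cyp51 29, those in Nsdhl 109 and 20, and those in Msmo1 160, 96 and 55.

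A few genes of sterol sensing and of bile acid synthesis and transport were called. The share called over all genes was 8.06%, with 5.67% higher and 2.4% lower. Of 7 measured genes of sterol sensing and uptake 2 fell, the sterol carrier gene Stard4 (-0.87, SE 0.24) and Scap, the escort of SREBP (-0.48, SE 0.10), while Insig1, which retains that escort, was at -0.25 (adjusted p = 0.745). Of the 12 listed bile acid synthesis genes 1 was called, Cyp8b1, the hydroxylase that makes cholic acid. It read 11.87, 10.87 and 11.10 on chow and 10.52, 9.75 and 9.82 on the atherogenic diet (-1.25, SE 0.37, adjusted p = 0.0255). The oxysterol hydroxylase gene Cyp39a1, which was not in that list, was also called lower (-1.98). Cyp7a1, the rate-limiting hydroxylase, read 12.22, 10.07 and 10.22 against 10.46, 10.12 and 10.79, so the groups overlapped and the first chow array was the highest of the 6 (-0.38, SE 0.60, adjusted p = 0.777). Of 18 genes of bile acid sensing and transport 1 rose, Nr0b2 (1.11, SE 0.32), and 1 fell, Slc10a1, the main uptake transporter (-0.47, SE 0.10). The calls of Stard4 (-0.86, adjusted p = 0.0633), Scap (-0.37, adjusted p = 0.051), Cyp8b1 (-1.11, adjusted p = 0.155), Nr0b2 (1.05, adjusted p = 0.113) and Slc10a1 (-0.31, adjusted p = 0.11) were lost without the second atherogenic array, and without the second chow array Nr0b2 was at 0.51.

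Targets of LXR rose nearly throughout. Of 10 measured targets 8 rose, against 5.67% of all genes, with a median of 1.29. Lpl, which hydrolyses the triglycerides of lipoproteins, read 8.05, 8.75 and 8.95 on chow and 11.67, 11.59 and 11.52 on the atherogenic diet, a rise of 8.06-fold (log2 3.01, SE 0.27, adjusted p = 1.32e-14). Abcg1, a pump that moves cholesterol out of cells, read 6.73, 7.13 and 6.17 against 8.95, 9.06 and 8.53 (2.17, SE 0.20), and the phospholipid transfer protein gene Pltp read 8.11, 8.52 and 8.63 against 10.30, 10.26 and 10.03 (1.78, SE 0.19). In each of these the diets lay far apart. Abcg5 (1.42, SE 0.15) and Abcg8 (1.19, SE 0.17), the subunits of a transporter that secretes sterols into bile, rose together. Srebf1, the driver of fatty acid synthesis, rose by 1.40 (SE 0.24), Mylip by 0.74 (SE 0.17) and Abca1 by 0.72 (SE 0.10). The 2 that were not called were Nr1h3, which encodes LXR alpha itself (-0.02), and Lpcat3 (0.30). The count was 7 to 9 over every alternative that was run.

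Other lipid genes moved both ways, in few members of each list. Over all genes 5.67% were called higher and 2.4% lower. Of 20 fatty acid synthesis genes 3 rose and 2 fell. The desaturase gene Scd2 read 4.83, 4.56 and 4.83 on chow and 7.01, 7.69 and 6.91 on the atherogenic diet (2.47, SE 0.22). Those chow values were below the median probe set of the array, and its other 2 probe sets were at 0.74 and 0.63. Scd1 rose by 0.95 (SE 0.25) from a mean of 13.16, with its dimmer probe set at 2.59 (from 9.61 to 12.20, adjusted p = 4.44e-06). Elovl5 rose by 0.61 (SE 0.18), and the desaturase gene Fads1 fell by 0.85 (SE 0.18). Lpin1, a phosphatidate phosphatase that makes diacylglycerol, read 10.92, 8.42 and 9.57 against 7.13, 7.31 and 8.12 (-2.12, SE 0.38, adjusted p = 4.01e-05), the largest fall of that list. Of 20 lipid droplet and storage genes 3 rose, the fatty acid carriers Cd36 (1.74, SE 0.23), Fabp2 (1.05, SE 0.15) and Fabp4 (1.00, SE 0.17), and 2 fell, Fitm2 and Pparg. Of 21 genes of fatty acid oxidation and PPARA targets 5 fell. Cyp4a14, a fatty acid hydroxylase that PPARA induces, had the largest fall of all called genes: it read 12.74, 12.53 and 10.72 on chow and 10.50, 6.58 and 8.88 on the atherogenic diet (-3.34, SE 0.64, adjusted p = 0.000107). The second atherogenic array was the lowest, and the third chow array lay just above the first atherogenic array. Ppargc1a, a coactivator of oxidative genes, read 8.32, 7.51 and 7.65 against 6.12, 6.51 and 6.88 (-1.32, SE 0.35), and the other 3, Hadha, Hadhb and Acaa2, fell by 0.34 or less. Of 16 lipoprotein genes 3 rose, Apoc2 (0.51), Apoc1 and Apof (each 0.18), and 2 fell, Apom (-0.45) and Apoa5 (-0.36). Calls of Elovl5 (0.59), Fitm2 (-0.35), Pparg (-0.58), Hadha (-0.23), Hadhb (-0.21), Acaa2 (-0.19), Apom (-0.37) and Apof (0.18) were lost without the second atherogenic array. Those of Scd1 (0.81), Ppargc1a (-1.07), Hadha (-0.32), Hadhb (-0.36), Apoa5 (-0.28), Elovl5 (0.38), Fitm2 (-0.32), Apom (-0.34) and Apof (0.16) were lost without the first chow array. The 5 genes called in the oxidation list became 2 without any 1 of the chow arrays and without the second atherogenic array. Most of these small changes were also lost without a further single array.

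Acute phase genes were among those with the largest rises, and the cells that made these transcripts were not measured. Of 25 measured genes 10 rose, against 5.67% of all genes, with a median of 0.24. Saa1 and Saa2, which encode serum amyloid A carried on HDL, were among the 3 genes that rose most. Saa1 read 6.85, 7.33 and 8.38 on chow and 12.19, 13.30 and 12.07 on the atherogenic diet, a rise of 32.1-fold (log2 5.0, SE 0.61, adjusted p = 1.32e-09). Saa2 read 5.78, 6.55 and 6.88 against 11.26, 12.82 and 10.49 (5.12, SE 0.65). Lcn2, an iron-scavenging secreted protein, read 5.48, 5.25 and 5.19 against 10.05, 11.78 and 8.99 (4.97, SE 0.67), and Saa3 read 6.44, 6.80 and 6.72 against 10.81, 11.96 and 10.01 (4.27, SE 0.52). The diets did not overlap in any of the 4 genes, and the second atherogenic array was the highest of its group in each. The glycoprotein genes Orm2 and Orm3 rose by 2.20 (SE 0.55) and 2.12 (SE 0.29), Steap4 by 0.72, Il1rn by 0.55 (0.50 and 1.59 in its other 2 probe sets), and the haem and haemoglobin binders Hpx and Hp by 0.44 and 0.36. Of the 15 that were not called, Hamp, which encodes hepcidin, was at -0.42. The count was 6 without the second atherogenic array, since Orm2 (1.58), Steap4 (0.61), Il1rn (0.42) and Hp (0.23) were lost. Of 16 complement and coagulation genes 2 rose, C9 (0.78) and Cfb (0.42), and 1 fell, F11 (-0.65). These are small counts beside the shares over all genes, 5.67% higher and 2.4% lower. Without the second atherogenic array Cfb was at 0.29 (adjusted p = 0.0875) and F11 at -0.51 (adjusted p = 0.0948).

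Saa1 and Saa2 are close copies of each other, so their probe sets may read both transcripts and their values are not independent. The likeness reaches into the promoters: of 250 bases before the start 249 could be paired in a global alignment and 238 of these were equal (95.6%). The sequences, from RefSeq on GRCm38.p6, are those of Saa1 (chr7:46742981-46743230, minus strand) and Saa2 (chr7:46751583-46751832, plus strand), 5′ to 3′ with the bases that differ or have no partner in capitals:
Saa1: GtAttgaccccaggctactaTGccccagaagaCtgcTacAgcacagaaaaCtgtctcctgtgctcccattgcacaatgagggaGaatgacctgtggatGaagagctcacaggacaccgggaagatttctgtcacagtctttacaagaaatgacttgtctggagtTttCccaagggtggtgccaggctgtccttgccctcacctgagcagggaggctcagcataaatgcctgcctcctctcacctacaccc
Saa2: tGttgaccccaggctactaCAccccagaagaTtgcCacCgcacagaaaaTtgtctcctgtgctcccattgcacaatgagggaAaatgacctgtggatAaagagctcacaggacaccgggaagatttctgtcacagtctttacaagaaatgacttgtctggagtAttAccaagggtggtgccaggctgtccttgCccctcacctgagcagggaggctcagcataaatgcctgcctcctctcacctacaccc
The last stretch before the start is shared without a difference.

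**Figure D2:**
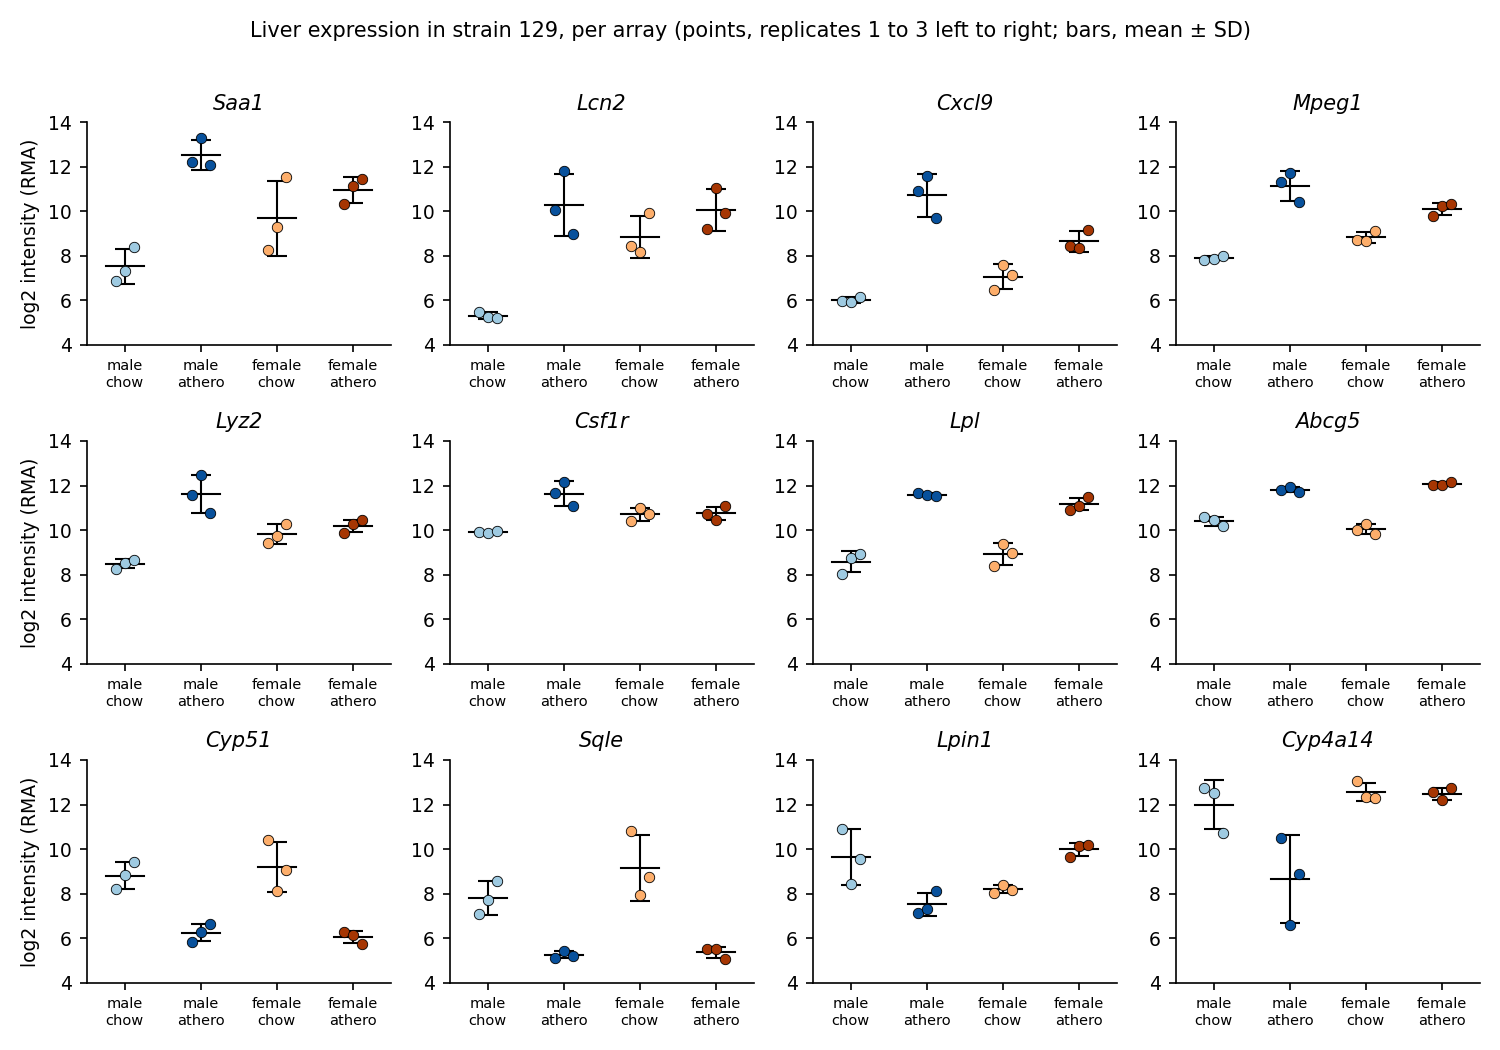
Log2 intensity (RMA) of 12 genes on each of the 12 arrays of 129S1/SvImJ; points are arrays, lines the mean and bars the SD of 3 arrays. In males Saa1, Lcn2, Cxcl9, Mpeg1, Lyz2, Csf1r, Lpl and Abcg5 were higher and Cyp51, Sqle and Lpin1 lower on the atherogenic diet without overlap. Females on chow lay above males on chow in Lcn2 (8.16 or more against 5.48 or less).

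Chemokine and interferon genes rose as well. Over all genes 5.67% were called higher. Of 25 measured genes of chemokines and inflammation 11 rose (median 0.61). Cxcl9, a chemokine induced by interferon gamma that attracts T cells, read 5.97, 5.91 and 6.16 on chow and 10.88, 11.58 and 9.68 on the atherogenic diet, a rise of 26.0-fold (log2 4.70, SE 0.59, adjusted p = 4.88e-09). Its other, dimmer probe set rose less, from a mean of 4.72 to 6.16 (1.45, adjusted p = 0.0023 by limma). The sex and strain differences of Cxcl9 given below were read through the brighter probe set. Cd14, the coreceptor for lipopolysaccharide, read 5.68, 5.45 and 5.69 against 8.26, 9.34 and 7.23 (2.67, SE 0.40). Ccl6 rose by 2.59 (SE 0.31), Cxcl10 by 2.50 (SE 0.51), the adhesion molecule Icam1 by 2.04 (SE 0.33), Tlr2 by 1.55 (SE 0.30) and the cytokine Il1b by 1.24 (SE 0.27). Tnf (-0.01) and Ccl2 (0.75) were not called. Of 18 interferon response genes 10 rose (median 0.89). The guanylate binding protein genes Gbp2 and Gbp3 rose by 2.91 (SE 0.55) and 2.60 (SE 0.42), the immunoproteasome subunits Psmb8 and Psmb9 by 1.99 (SE 0.29) and 1.72 (SE 0.33), and the factor Irf1 by 1.05 (SE 0.24). Psmb8 read 7.32, 7.82 and 7.61 on chow and 9.81, 9.92 and 8.99 on the atherogenic diet, and the diets did not overlap. Among the 8 that were not called were Ifit1 (0.19), Mx1 (0.11) and Irf7 (0.68). Without the second atherogenic array 6 members of each list were called, and Il1b was at 0.90 (adjusted p = 0.0734). Without the first chow array 6 interferon genes were called.

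Markers of macrophages rose nearly as a whole. Of 23 measured markers 20 rose, with a median of 1.87, and for the same number of markers every atherogenic array lay above every chow array, as was so for 10.4% of all genes. Lgals3, a lectin of activated macrophages, read 5.67, 6.01 and 5.76 on chow and 9.98, 10.74 and 8.97 on the atherogenic diet, a rise of 17.0-fold (log2 4.08, SE 0.35, adjusted p = 5.7e-15). Mpeg1, a pore-forming protein of phagocytes, read 7.79, 7.86 and 7.97 against 11.30, 11.71 and 10.39 (3.26, SE 0.29). Marco, a scavenger receptor, read 5.66, 6.01 and 5.73 against 8.94, 10.43 and 7.54 (3.17, SE 0.50), and the lysozyme gene Lyz2 read 8.27, 8.53 and 8.67 against 11.59, 12.49 and 10.79 (3.13, SE 0.31). The chow values lay close together, and the atherogenic values were spread in 1 order, with the second array the highest in 22 of the 23 markers and the third the lowest in 22. Genes of Kupffer cells were among those that rose: Cd5l, an apoptosis inhibitor they secrete, by 2.93 (SE 0.22), Timd4, a receptor for dying cells, by 2.45 (SE 0.32), Vsig4, a complement receptor, by 1.45 (SE 0.19) and the lectin Clec4f by 1.35 (SE 0.19). So did pan-macrophage genes: Ctss by 2.83 (SE 0.28), Cd68 by 2.25 (SE 0.26), the complement genes C1qa, C1qb and C1qc by 1.87, 2.15 and 2.14, Adgre1, which encodes F4/80, by 1.89 (SE 0.25), and the growth factor receptor gene Csf1r by 1.74 (SE 0.22). The 3 that were not called were Cd163, a haemoglobin scavenger receptor, which read 7.17, 6.31 and 6.91 against 5.93, 6.52 and 5.58 (-0.79, adjusted p = 0.178), Itgam (0.07) and Trem2 (0.11). Gpnmb and Itgax, at 0.98 and 1.11, lost their call without the second atherogenic array (0.57 and 0.58), and the other probe set of Gpnmb, at 3.82 on both diets, was at 0.00. The list averaged 6.95, 7.05 and 7.06 on the chow arrays and 8.86, 9.34 and 8.26 on the atherogenic arrays. In whole liver, more macrophages and more RNA per macrophage cannot be told apart.

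Of other leukocyte markers few were called. Of 15 lymphocyte markers 14 were not called, and the 1 that rose, near the 5.67% of all genes that did, was Ptprc, which encodes CD45 of all leukocytes: it read 5.92, 6.01 and 6.05 on chow and 9.01, 9.64 and 8.47 on the atherogenic diet (3.05, SE 0.32). Cd3e, of the T cell receptor complex, was at 0.25 (adjusted p = 0.148), and the B cell genes Cd79a and Ms4a1 were at 0.17 and 0.37. The median of the 15 was 0.37. In 9 of the 15 every atherogenic array lay above every chow array, as was so for 10.4% of all genes. The lymphocyte list averaged 5.30 on each chow array and 5.95, 6.01 and 5.64 on the atherogenic arrays. Of 10 neutrophil markers 3 rose: S100a8 read 5.18, 5.40 and 5.68 against 9.24, 9.50 and 7.56 (3.35, SE 0.45), S100a9 rose by 1.94 (SE 0.43) and Csf3r by 0.43 (0.31 and no longer called without the second atherogenic array). The other 7 were at -0.10 or above and were not called.

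Several of the largest rises lay outside those lists. BC023105, a gene without a settled function, read 4.68, 4.98 and 4.69 on chow and 10.80, 9.88 and 8.58 on the atherogenic diet, a rise of 31.4-fold (log2 4.97, SE 0.82, adjusted p = 5.12e-06). Cd44, the hyaluronan receptor, read 4.08, 4.07 and 3.84 against 8.18, 8.41 and 7.14 (3.91, SE 0.34), while its other 2 probe sets were at 1.19 and -0.03. Ubd, a ubiquitin-like modifier, read 4.45, 4.44 and 4.31 against 8.80, 9.31 and 6.02 (3.64, SE 0.71). Chow values of these 3 genes were below the median probe set of the array, where an intensity follows the amount of RNA less closely, and a fold from so low a level is a compressed one on this scale. Clec7a, the receptor for fungal glucans, rose by 3.45 (SE 0.34), Cybb, the catalytic subunit of the phagocyte oxidase, by 3.32 (SE 0.36), Cd52 by 3.29 (SE 0.39) and the class II gene H2-Ab1 by 3.20 (SE 0.43). H2-Ab1 read 7.13, 7.21 and 7.52 on chow and 10.65, 10.97 and 9.83 on the atherogenic diet.

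Collagen and stellate cell genes rose too. Over all genes 5.67% were called higher. Of 22 measured genes of matrix and stellate cells 12 rose, with a median of 0.71. Col3a1, a fibrillar collagen, read 6.85, 7.99 and 7.86 on chow and 10.40, 10.56 and 9.72 on the atherogenic diet (2.66, SE 0.34, adjusted p = 1.04e-08). Col1a2 read 6.53, 6.92 and 6.74 against 8.88, 9.46 and 8.11 (2.09, SE 0.27). Vim, an intermediate filament of mesenchymal cells and leukocytes, rose by 2.28 (SE 0.30), the macrophage elastase gene Mmp12 by 2.00 (SE 0.37) and the basement membrane collagen gene Col4a1 by 1.60 (SE 0.21). Acta2, the actin of activated stellate cells, was at 0.75 (SE 0.18), and its other 2 probe sets were at -0.04 and -0.25. Acta2 without the second atherogenic array was at 0.39 (adjusted p = 0.301). Timp1, Timp2, Lum, Dcn and Des were not called. With the 6 arrays fitted alone 7 members of the list were called. Of 13 endothelial markers 5 rose: Lyve1, of sinusoidal cells, by 1.20 (SE 0.24), Pecam1 by 0.66, Vwf by 0.63, Stab2 by 0.61 and Cdh5 by 0.55. Without the first atherogenic array 3 of these were called (Stab2 at 0.55, adjusted p = 0.0654, and Vwf at 0.51, adjusted p = 0.0609). The 8 cholangiocyte markers (-0.27 to 0.25) and the 12 hepatocyte markers were not called.

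Among the males, 1 atherogenic array stood apart in genes of cell division. Of 22 proliferation genes 4 rose, against 5.67% of all genes. The list averaged 5.58, 5.65 and 5.64 on the chow arrays and 6.01, 6.94 and 5.84 on the atherogenic arrays. In females of the strain it averaged 5.71, 6.89 and 5.91 on chow and 5.94, 6.38 and 5.83 on the atherogenic diet. A single high array thus occurred on chow as well. Ccnd1, the cyclin that opens the cell cycle, read 5.58, 5.96 and 6.61 on chow and 7.96, 8.16 and 7.92 on the atherogenic diet (1.96, SE 0.33, adjusted p = 8.98e-06), and the 3 atherogenic values lay close together. The helicase subunits of DNA replication were spread more widely: Mcm6 read 5.38, 5.16 and 5.29 against 6.33, 8.80 and 5.96 (1.76, SE 0.42), and Mcm5 read 5.50, 5.70 and 5.86 against 6.43, 8.33 and 6.35 (1.35, SE 0.37). Mki67, a mark of cycling cells, read 4.90, 4.63 and 4.66 against 5.45, 7.05 and 5.01 and was not called (adjusted p = 0.08). Without the second atherogenic array Ccnd1 alone of the list was called, with Mcm6, Mcm5 and Mcm4 at 0.87, 0.70 and 0.36. Without the third atherogenic array 9 were called, without the first 7, and without the first chow array 2. That second array also held the highest mean of the acute phase (11.91), chemokine (7.60) and macrophage lists and the lowest value of Cyp4a14, and its part in those results was not tested beyond leaving it out. In females Ccnd1 was at -0.34, and the difference between the sexes was 2.30 (SE 0.47, adjusted p = 0.00202).

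Outside oxidative phosphorylation, drug, stress and energy genes were called in few members of each list. By comparison, 8.06% of all genes were called, 5.67% higher and 2.4% lower. A list of 13 or 16 genes with 1 called member is near that share. Of 19 cytochrome P450 and flavin monooxygenase genes 2 rose, Cyp2c55 (1.68, SE 0.50) and Fmo5 (0.62, SE 0.17), and Cyp17a1, a steroid hydroxylase, fell (-1.43, SE 0.36). Of 18 NRF2 targets and glutathione transferases Hmox1, the inducible haem oxygenase, read 6.47, 6.49 and 6.63 on chow and 8.46, 8.69 and 7.98 on the atherogenic diet (1.85, SE 0.26), while Nqo1, a defining target, was at 0.01. Srxn1 rose by 0.71 and Gstt2 fell by 0.73. Of 23 oxidative phosphorylation genes 7 fell, against 2.4% of all genes, each by little (median of the list -0.17). Examples were Ndufs1 of complex I (-0.38, SE 0.08) and Uqcrc2 of complex III (-0.27, SE 0.06). The count of 7 was 1 without the second atherogenic array (Uqcrc2 at -0.22, adjusted p = 0.0512) and 3 without the second chow array. Of 21 ER stress genes 2 fell, Asns and Atf4 (-0.80 and -0.39), and Edem1 rose (0.34). Of 15 glucose genes Pklr and Pygl rose (0.93 and 0.35) and Gys2 fell (-0.63), and of 16 amino acid and urea cycle genes Cth fell (-0.50). Susd4 of 13 male-biased genes fell (-0.75), Cela1 of 8 pancreas markers fell (-0.78), and Cyp17a1 was the one member of 13 female-biased genes called. The 13 clock, 4 erythroid, 3 adipocyte and 4 sex chromosome genes were not called. Without the second atherogenic array the calls of Cyp2c55 (1.57), Fmo5 (0.53), Srxn1 (0.47), Gstt2 (-0.45), Edem1 (0.29), Pklr (0.89), Pygl (0.38), Gys2 (-0.51) and Cela1 (-0.68) were lost. Without the first chow array those of Cyp17a1 (-0.86), Asns (-0.61), Cth (-0.48), Srxn1 (0.62), Gys2 (-0.38), Pklr (0.83), Pygl (0.27), Cyp2c55 (1.68) and Gstt2 (-0.68) were lost. Cyp2c55 was also lost without the third chow array (1.51) or the first atherogenic array (1.52). Atf4 was lost without the third chow array (-0.32).

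Large falls outside the lipid lists were of single genes. Foxq1, a forkhead factor, read 6.72, 8.76 and 7.55 on chow and 6.09, 4.48 and 4.77 on the atherogenic diet (-2.56, SE 0.62, adjusted p = 0.00361). Serpina4-ps1, a pseudogene of a protease inhibitor, read 10.43, 10.18 and 11.52 against 7.91, 7.48 and 9.24 (-2.50, SE 0.69). Cish, an inhibitor of cytokine and growth hormone signalling that STAT5 induces, read 8.59, 8.58 and 8.71 against 6.23, 6.28 and 6.83 (-2.18, SE 0.57). Enho, which encodes the secreted peptide adropin, read 9.07, 9.09 and 8.95 against 7.71, 7.20 and 6.92 (-1.76, SE 0.29, adjusted p = 5.31e-06). The groups did not overlap in any of the 4. Tcf24 fell by 2.16 (SE 0.31), the oxysterol hydroxylase gene Cyp39a1 by 1.98 (SE 0.35) and the kinase gene Plk3 by 1.82 (SE 0.38). When the second atherogenic array was left out, Foxq1 (-2.24), Serpina4-ps1 (-2.13) and Cish (-2.10, adjusted p = 0.0539) were no longer called, nor was Foxq1 without the second chow array (-2.02) or Serpina4-ps1 without the third chow array (-2.09).

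The next question was whether females of the same strain responded alike. The median change of cholesterol synthesis was -1.48 in females and -1.09 in males, and that of LXR targets was 1.37 and 1.29, and limma called no member of either list for a difference between the sexes, while 4 of 17 and 5 of 10 had an unadjusted p under 0.05, as did 16.1% of all genes. The median of the macrophage markers was 0.23 in females and 1.87 in males. In females 713 genes were called (3.92%), 468 higher and 245 lower. Of these 180 were called in the same direction in males, 12.3% of the male and 25.2% of the female calls, and 12 in the opposite direction. Across 18193 genes the 2 changes had a Pearson r of 0.34 and a Spearman rho of 0.17, and genes are not independent replicates. The difference between the sexes itself was called for 768 of 45037 probe sets (1.71%) and for 441 of 18193 genes (2.42%), 246 of them in favour of males, whose change was the more positive, and 195 in favour of females. With the 12 arrays of the strain fitted alone 69 genes were called, without the first male chow array 154, without the second male atherogenic array 198 and without the third female chow array 281.

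By their means, most macrophage markers were higher in females than in males on chow, and lower in females on the atherogenic diet. The sexes were not tested within a diet, and on the atherogenic diet their list averages overlapped. Of 23 markers 14 were called for a difference of the diet change between the sexes, each for a more positive change in males. Lyz2 changed by 3.13 in males and 0.38 in females, a difference of 2.75 (SE 0.44, adjusted p = 7.96e-05), and read 9.41, 9.74 and 10.29 in females on chow against 8.27 to 8.67 in males on chow. Csf1r differed by 1.69 (SE 0.31), C1qa by 1.85 (SE 0.34) and Ptprc by 2.60 (SE 0.46), with female changes of 0.04, 0.03 and 0.44. The list averaged 7.59, 7.95 and 7.91 in females on chow, above the 6.95 to 7.06 of males on chow, and 7.99, 8.18 and 8.39 in females on the atherogenic diet, where the male arrays averaged 8.86, 9.34 and 8.26. In 18 of 23 markers every female chow array lay above every male chow array, as was so for 9.7% of all genes, and in 2 of 23 the female mean on the atherogenic diet lay above the male mean. With the 12 arrays of the strain fitted alone 5 of the 14 differences were called.

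Several acute phase genes also had higher means in females than in males on chow. Lcn2 read 8.42, 8.16 and 9.89 in females on chow, against 5.19 to 5.48 in males, and 9.21, 11.05 and 9.90 on the atherogenic diet, so its difference of 3.74 (SE 0.94, adjusted p = 0.018) came with female chow values that were already high. Saa1 read 8.23, 9.29 and 11.53 in females on chow and 10.32, 11.11 and 11.43 on the atherogenic diet (difference 3.74, SE 0.86), and Saa2 differed by 3.84 (SE 0.92). The third female chow array was the highest of its group in these genes, and without it the 3 differences were 3.20, 2.81 and 3.01 and were not called. Each of the 3 also lost its call without the second male atherogenic array and without 1 further array, at 2.99 to 3.53. Cxcl9, which rose by 4.70 in males and was at 1.59 in females (adjusted p = 0.164), differed by 3.11 (SE 0.84, adjusted p = 0.0299), BC023105 by 4.10 (SE 1.16) and Fpr2, a receptor for formylated peptides and for serum amyloid A, by 3.35 (SE 0.76). Of the 12 arrays of the strain, the call of BC023105 was lost when any 1 of 10 was left out (3.58 to 4.22) and that of Cxcl9 when any 1 of 8 was (2.68 to 3.09), while that of Fpr2 was lost only without the second male atherogenic array (2.77). Saa3 was called in both sexes (4.27 and 2.57), and its difference was not called (adjusted p = 0.276).

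**Figure D3:**
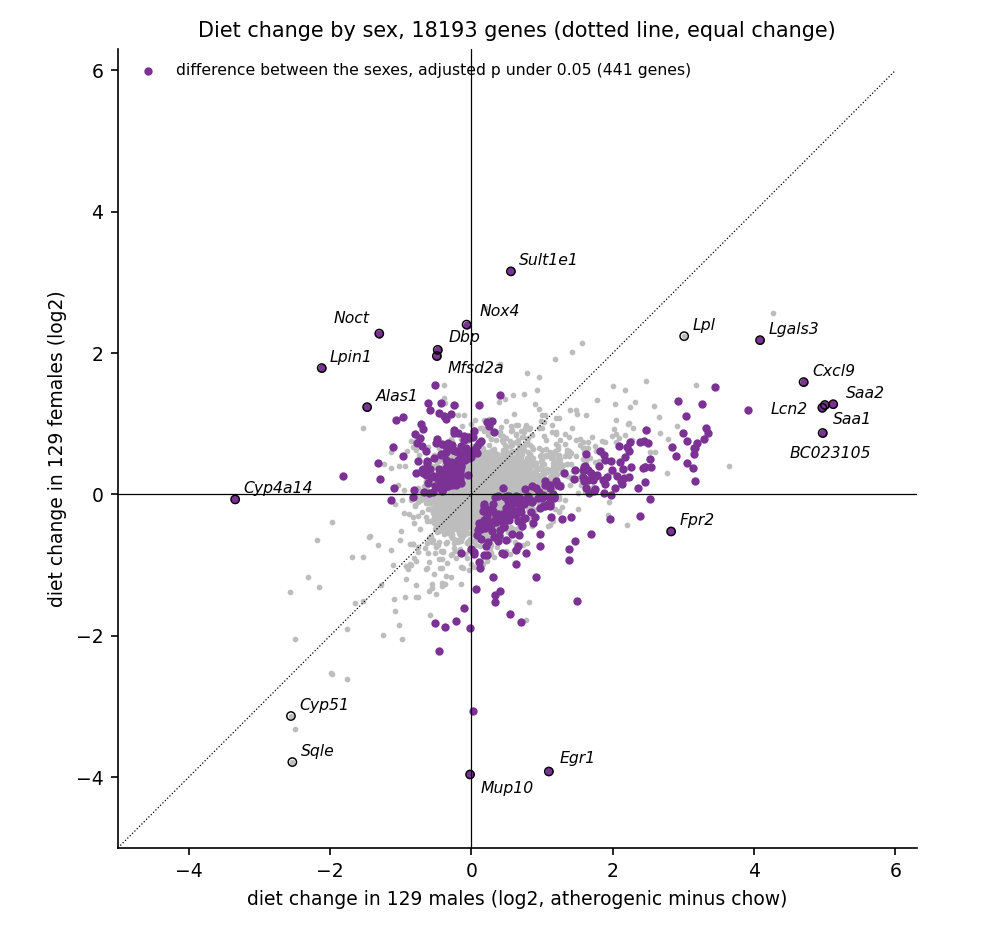
Log2 diet change of 18193 genes in 129S1/SvImJ males (horizontal) and females (vertical), with the 441 genes whose difference between the sexes was called in purple and the line of equal change dotted. Saa1, Saa2, Lcn2 and Cxcl9 lie far to the right with female changes of 1.23 to 1.59, Cyp51 and Sqle lie low in both sexes, and Lpin1 fell in males and rose in females.

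Several metabolic, clock and steroid genes differed between the sexes the other way, or fell in females. Lpin1 fell by 2.12 in males and rose by 1.79 in females, where it read 8.04, 8.38 and 8.18 on chow and 9.65, 10.13 and 10.19 on the atherogenic diet (difference -3.91, SE 0.54, adjusted p = 4.96e-06). Egr1, an immediate early factor, read 10.32, 10.56 and 10.42 in females on chow and 6.42, 6.50 and 6.63 on the atherogenic diet, against 5.46 to 7.21 and 6.90 to 7.82 in males (difference 5.02, SE 0.99, adjusted p = 0.00137). Only the females on chow were high. Sult1e1, the oestrogen sulfotransferase, rose by 3.16 in females and was at 0.56 in males (difference -2.60, SE 0.41), Nox4 differed by -2.47 (SE 0.57), and Mup10, a urinary protein, fell by 3.96 in females (difference 3.94, SE 0.77). Cyp4a14 read 12.20 or more on all 6 female arrays, and did not overlap the male atherogenic values (difference -3.27, SE 0.90, adjusted p = 0.0348). The clock genes Dbp, Tef, Per1 and Nr1d2 differed by -2.52, -1.49, -1.43 and -0.77, and Noct, a gene with a daily rhythm, by -3.58. Dbp read 9.12, 6.13 and 7.99 in females on chow and 10.50, 10.76 and 8.11 on the atherogenic diet, against 9.98 to 11.35 in males, so the female arrays were spread widely. The hour of harvest is not given in the labels used here, and its part in these differences was not tested. Alas1 and Mfsd2a differed by -2.71 and -2.45. Many of these calls rested on single arrays. Of the 12 arrays of the strain, leaving out any 1 of 9 ended the call of Alas1 (-2.87 to -2.34) and of Mfsd2a (-2.54 to -2.10), any 1 of 7 that of Cyp4a14 (-3.24 to -2.23), any 1 of 5 that of Dbp (-2.45 to -1.71) and of Nr1d2 (-0.73 to -0.61), and either of 2 that of Noct (-3.44 and -3.24) and of Nox4 (-2.24 and -2.08).

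The last question was whether males of 129S1/SvImJ responded like males of other strains. Their diet change was compared with the mean change of males of 8 strains, each read against its own chow group. The strain difference was called for 248 of 45037 probe sets (0.551%) and for 133 of 18193 genes (0.731%), 102 with a more positive and 31 with a more negative change in 129S1/SvImJ. Across genes the 129S1/SvImJ change and the mean of the 8 strains had a Pearson r of 0.75 and a Spearman rho of 0.57. By strain r was highest with NZB/BINJ (0.73), C57BL/6J (0.72), C3H/HeJ (0.69) and A/J (0.69), and lowest with MRL/MpJ-Tnfrsf6lpr/J (0.23) and DBA/2J (0.02). The count rested in part on single arrays and on those strains: it was 30 without the second 129S1/SvImJ atherogenic array, 40 without the first chow array, 203 and 231 without the third chow and the third atherogenic array, 80 without DBA/2J in the mean and 83 without MRL/MpJ-Tnfrsf6lpr/J. Males of SM/J, whose diet labels are in doubt, were left out of the mean, and with them 221 genes were called.

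The 10 genes with the most positive strain difference included BC023105, the chemokine gene Cxcl9 and 3 serum amyloid A genes. BC023105 changed by -1.33 to 2.27 in the other 8 strains against 4.97 (difference 4.65, SE 0.87, adjusted p = 0.00091). Cxcl9 changed by -0.89 to 3.19 against 4.70 (difference 3.68, SE 0.63, adjusted p = 0.000182), Saa1 by -0.16 to 2.70 against 5.0 (3.43, SE 0.64), Saa2 by -0.30 to 3.14 against 5.12 (3.40, SE 0.69) and Saa3 by -0.18 to 3.56 against 4.27 (2.64, SE 0.55). In each of these genes the 129S1/SvImJ change lay above that of each of the 8 strains compared. The genes were picked for a large difference from the mean of those strains, so this order is not separate support. Ctla2b, Gbp6 and Cd44 differed by 2.29 (SE 0.36), 2.27 (SE 0.55) and 2.18 (SE 0.36). Cyp2c55, which changed by -1.46 to -0.08 elsewhere and by 1.68 here, differed by 2.46 (SE 0.53), and the tubulin gene Tubb2a by 2.39 (SE 0.46), while its other probe set was at 0.04 in 129S1/SvImJ males. Lcn2, with changes of -0.30 to 4.80 elsewhere, was not called (adjusted p = 0.233). Without the second atherogenic array the differences of Saa2 (2.75), Saa3 (2.13), Gbp6 (2.11), Cyp2c55 (2.35) and Tubb2a (1.70) were not called, and without the first chow array those of Saa2 (3.09), Saa3 (2.54), Gbp6 (2.15) and Tubb2a (1.72) were not. Gbp6 also lost its call without the first atherogenic array (2.09).

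**Figure D4:**
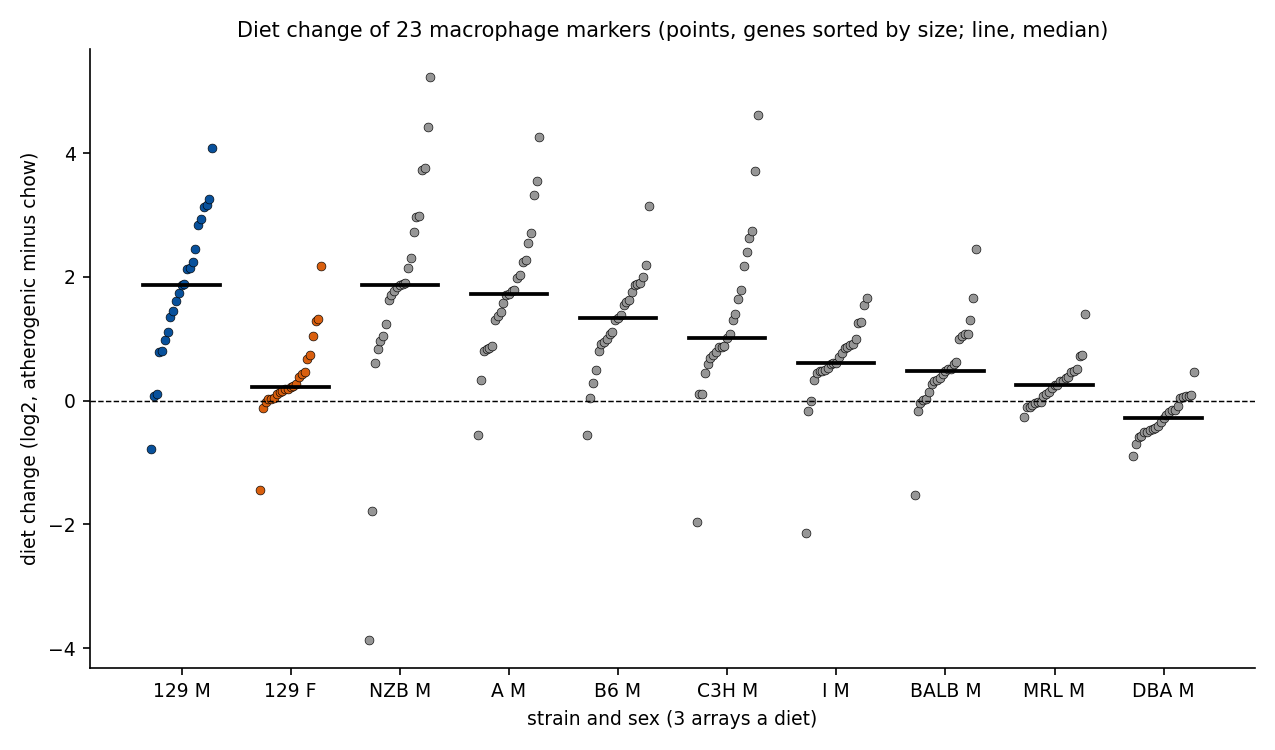
Log2 diet change of 23 macrophage markers in 129S1/SvImJ males and females and in males of 8 other strains; points are genes sorted by size and the line is their median. The median of 129S1/SvImJ males (1.87) equals that of NZB males (1.87) and lies near that of A males (1.73), while MRL (0.25) and DBA males (-0.28) lie near 0.

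Of the 23 macrophage markers 12 were called for a more positive change in 129S1/SvImJ males than in the mean of the other strains, among them Mpeg1 (1.87, SE 0.30), Cd5l (1.45, SE 0.24) and Clec4f (1.25, SE 0.21). The list's median change was 1.87 in 129S1/SvImJ, 1.87 in NZB/BINJ, 1.73 in A/J, 1.34 in C57BL/6J, 1.01 in C3H/HeJ, 0.61 in I/LnJ, 0.47 in BALB/cJ, 0.25 in MRL/MpJ-Tnfrsf6lpr/J and -0.28 in DBA/2J, so 129S1/SvImJ was not alone at the high end. The 12 became 3 without the second atherogenic array, 6 without the first chow array, 7 without the first atherogenic array and 7 without DBA/2J in the mean. Clec4f, a gene of resident Kupffer cells, ranged from -1.79 to 1.00 in the other strains.

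Of lipid genes, Lpl and Pltp rose more than in the mean of the other strains, and the change of Apoa4 was the more negative. Lpl changed by 0.84 to 2.57 elsewhere and by 3.01 here (difference 1.42, SE 0.29), and Pltp differed by 0.83 (SE 0.20). Apoa4, an apolipoprotein that rises with hepatic fat, read 13.48, 13.08 and 12.26 on chow and 12.76, 12.88 and 12.90 on the atherogenic diet (-0.09, adjusted p = 0.868), while it changed by 0.38 to 2.87 in the other strains (difference -1.66, SE 0.24, adjusted p = 6.63e-06). Females of the strain had it at -0.12. Cholesterol synthesis genes fell by a median of 1.68 in the mean of the other strains, and of the 17 the difference was called for Dhcr7 alone (1.27, SE 0.31). Among genes with a more negative change were Alas1, the first enzyme of haem synthesis (-2.66, SE 0.58), Cish (-2.46, SE 0.60), Plk3 (-2.13, SE 0.40), Cyp39a1 (-1.82, SE 0.38), Coq10b (-1.74, SE 0.41), Chac1 (-1.70, SE 0.36), Resf1 (-1.68, SE 0.38), Gdap10 (-1.54, SE 0.37) and the clock-linked protease gene Usp2 (-1.36, SE 0.34). Without the first 129S1/SvImJ chow array the differences of Lpl (1.16), Pltp (0.67), Dhcr7 (1.04), Alas1 (-2.40), Cish (-2.49), Cyp39a1 (-1.24), Coq10b (-1.23), Chac1 (-1.60), Gdap10 (-1.55) and Usp2 (-0.94) were not called, and Resf1 was lost without the third chow array (-1.44) or the first atherogenic array (-1.59). Of these, Pltp, Dhcr7, Cish, Coq10b, Chac1, Gdap10 and Usp2 also lost their call without 1 to 4 others of the 6 arrays.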

How the data were processed

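Liver RNA was measured on Affymetrix arrays, 1 animal an array. The authors deposited log2 intensities made with RMA, per the submitters' processing notes, for 45101 probe sets on 144 arrays; 64 control probe sets were left out. RMA adjusts all arrays to a shared distribution, so changes are relative to it. Intensities give no read depth, and 3 arrays a group limit the precision.

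Probe sets were named through the platform annotation, with symbols updated by RefSeq gene ID: 34958 had 1 symbol, 932 several and 9211 none. A gene was read through its probe set of highest mean over the fit (18193 genes, 9010 with several probe sets). Of 1837 genes with a called probe set 4 had calls in both directions. Probe sets cannot always tell near-identical copies apart (Saa, Orm, Gbp and Ctla2 genes). Of 578 list entries 520 matched, and the rest were not analysed here.

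Cell means of strain, sex and diet were fitted with limma 3.58.1 in R 4.3.3 over 120 arrays of the 10 strains of 11 to 13 weeks, with 80 residual degrees of freedom, and p-values were adjusted by Benjamini-Hochberg. The older strains, harvested after 50 weeks, were left out. The labels number 3 biological replicates in each group. Deviations from the group means of same-numbered male arrays correlated at -0.13, 0.10 and 0.06, so the numbers were not taken to pair the arrays. Genes were named by rule: the 15 largest changes each way by diet among called genes without overlap, the 8 largest each way by sex and the 10 largest each way by strain, and members of 34 gene lists. The members and lists were chosen with earlier results of these data known. Alternatives varied the samples fitted, the variance model, the scaling, the filter, the summary by gene and the threshold. Scripts were tested on simulated data. Promoter sequences are RefSeq's, on GRCm38.p6. Figures were drawn with matplotlib 3.10.9.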

Additional observations from a re-analysis of the deposited data

Results flagged for a closer look

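The diet change of 129S1/SvImJ males differed from that of females of the strain, by limma's test of the difference, for 441 genes. Among the genes described above, the change was more positive in males, on the log2 scale, for Egr1 (5.02), BC023105 (4.10), Mup10 (3.94), Saa2 (3.84), Lcn2 (3.74), Saa1 (3.74), Fpr2 (3.35), Cxcl9 (3.11), Lyz2 (2.75), C1qa (1.85), Csf1r (1.69), Ptprc (2.60) and Ccnd1 (2.30). It was more negative in males for Lpin1 (-3.91), Noct (-3.58), Cyp4a14 (-3.27), Alas1 (-2.71), Sult1e1 (-2.60), Dbp (-2.52), Nox4 (-2.47), Mfsd2a (-2.45), Tef (-1.49), Per1 (-1.43) and Nr1d2 (-0.77).

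The diet change of 129S1/SvImJ males differed from the mean change of males of 8 other strains, by the same test, for 133 genes. The change was more positive in 129S1/SvImJ for BC023105 (4.65), Cxcl9 (3.68), Saa1 (3.43), Saa2 (3.40), Saa3 (2.64), Cyp2c55 (2.46), Tubb2a (2.39), Ctla2b (2.29), Gbp6 (2.27), Cd44 (2.18), Mpeg1 (1.87), Cd5l (1.45), Clec4f (1.25), Lpl (1.42), Pltp (0.83) and Dhcr7 (1.27). It was more negative for Alas1 (-2.66), Cish (-2.46), Plk3 (-2.13), Cyp39a1 (-1.82), Coq10b (-1.74), Chac1 (-1.70), Resf1 (-1.68), Apoa4 (-1.66), Gdap10 (-1.54) and Usp2 (-1.36). Alas1, BC023105, Saa1, Saa2 and Cxcl9 were called both for the sex and for the strain difference. Both differences contain the diet change of the same 129S1/SvImJ males, so these calls are not independent of each other. Leaving out a single array ended the sex call of Alas1 for 9 arrays, of BC023105 for 10, of Cxcl9 for 8, and of Saa1 and Saa2 for 3 each. The strain call of Alas1 ended for 1 array and that of Saa2 for 2.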

How the results depend on the processing

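The count of genes called for diet (1467) was 421 with the 6 arrays fitted alone, 295 with those arrays and the replicate block, 672 with the 12 arrays of the strain and 816 at adjusted p under 0.01. It was 1458 with the replicate block over 120 arrays, 690 to 1511 with 1 array left out, and 1311 to 1728 under the other alternatives. The count for the sex difference (441) was 69 with the 12 arrays of the strain, 243 with array quality weights, 161 at adjusted p under 0.01, 449 with the replicate block and 154 to 560 with 1 array left out. The count for the strain difference (133) was 81 with the 60 male arrays, 87 with array quality weights, 56 at adjusted p under 0.01, 221 with SM/J males included, 80 without DBA/2J, 83 without MRL/MpJ-Tnfrsf6lpr/J, 142 with the replicate block and 30 to 231 with 1 array left out. Genes called higher made up 70.3% of the diet calls, 77.2% once arrays were centred on their medians and 60.6% after quantile normalization. Of 135 called diet genes that are named, 130 kept their call with the replicate block, 74 with the 6 arrays alone, 93 without the second atherogenic array and 108 without the first chow array. None of the 135, and none of the 24 and 26 named genes called for the sex and strain differences, changed direction under the alternatives run. Genes that were not called changed sign. Apoa4 was at 0.0391 with array quality weights, Nqo1 at -0.0494 after quantile normalization, and Nr1h3 at 0.0041 and Tnf at 0.0088 with arrays centred. With 1 array left out the ranges were -0.4294 to 0.1780 for Apoa4, -0.7644 to 0.3104 for Cyp7a1, -0.0259 to 0.3062 for Trem2, -0.0386 to 0.1892 for Itgam, -0.1842 to 0.1662 for Nqo1, -0.1153 to 0.0680 for Nr1h3 and -0.1231 to 0.1392 for Tnf. Fits of fewer arrays have fewer degrees of freedom; the cause of the other shifts was not tested. With 3 arrays a group, and intensities near the low end of the scale, small changes may be missed.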
